A study of Yarrowia lipolytica with 9 samples.

Results

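The step from pH 2.0 to pH 4.0 was examined across the genes of Yarrowia lipolytica W29, a wild-type strain of an oleaginous yeast that stores lipid and excretes organic acids. The 3 bioreactors held at pH 4.0 were compared with the 3 held at pH 2.0, and genes with at least 1 CPM (reads of the gene per 1000000 of the scaled library size) in 3 of these 6 libraries were kept. The rule kept 6116 of the 6170 genes in the table and removed 54. The series has 9 libraries, with 3 more from pH 6.0, which were used for the estimate of the spread and for the upper step. All cultures were of this strain, for which the labels give no further genotype, and were harvested at hour 50. The medium was the same at every pH and held glucose at 50 g/L, yeast nitrogen base at 1.7 g/L, yeast extract at 1.5 g/L and ammonium sulfate at 1 g/L. The labels name triplicate bioreactors and do not say whether these were run on separate days.

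In a strongly acidic medium, protons and undissociated weak acids enter yeast cells. Yeasts hold the cytosol near neutral by pumping protons out at the plasma membrane, which consumes ATP, and by remodelling the cell wall and membrane. Fungi also carry a signalling pathway that senses neutral to alkaline medium and switches genes for secreted enzymes and transporters.

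The deposited table lists genes by locus identifiers alone, and 0 of these identifiers matched the reference gene table, which covers the same strain with another set of tags. No gene name or role is therefore given to any identifier, and neither the cell form nor the pathways could be checked by marker genes. The results below describe the genes by their level, the size of their change and their behaviour in each library.

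The 6 libraries compared held from 12974822 to 16070308 reads, recovered from the steps of the deposited values. Pearson's r of log2 values between replicates, across genes, lay between 0.9862 and 0.9888 for the pH 2.0 libraries and between 0.9913 and 0.9943 for those of pH 4.0. On the first principal component, which held 83.6% of the variance of the 6 libraries, the pH 2.0 libraries lay at -36.7, -21.5 and -24.6 and the pH 4.0 libraries at 31.6, 24.2 and 27.1 for replicates A, B and C. Replicate A of pH 2.0 lay farthest out on the pH 2.0 side. The deposited columns did not share 1 total. They summed to between 904216 and 910806 CPM at pH 2.0 and to between 1010486 and 1094635 CPM at pH 4.0, so the choice of scaling moves with the groups. A set of 16 genes with identifiers of a second form differed more between replicates than between pH 2.0 and pH 4.0, with summed levels of 3558, 2236 and 1174 CPM at pH 2.0 and 2883, 1967 and 1925 CPM at pH 4.0. None of the 16 was called, the smallest adjusted p in the limma fit being 0.0527.

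Under the deposited scaling most genes differed in level between pH 2.0 and pH 4.0, and about as many were higher as lower. This balance depended on the scaling, as given below. At pH 4.0, 1901 genes rose (31.1% of those tested) and 2008 fell (32.8%), 63.9% of the genes in all. Genes were called at an adjusted p under 0.05 in limma's moderated test on log2(CPM + 1), with Benjamini-Hochberg adjustment over all 6116 genes. The median log2 fold change over all genes was -0.03 under the deposited scaling, -0.23 with library totals made equal and 0.01 after quantile normalization. With equal totals 1266 genes were called higher and 2868 lower, and after quantile normalization 1907 were called higher and 1766 lower. No gene called in 1 direction was called in the other under either of these scalings. Under all 3 scalings 1191 genes were called higher (19.5%) and 1513 were called lower (24.7%). By deposited CPM, every pH 4.0 library lay above every pH 2.0 library in 1984 genes (32.4%), and every one lay below in 2170 genes (35.5%). These 2 counts were not made under the other scalings. Since CPM is relative to the scaled library size, neither the total RNA per cell nor the number of cells can be read from these values. A change in the RNA of a gene cannot be told apart from a change in the rest of the library.

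The changes were mostly small. The middle 50% of genes lay between -0.42 and 0.36 on the log2 scale, and 90% lay between -1.16 and 0.95. The median standard error of a log2 fold change was 0.10, and the smallest change called was 0.15 in size. Among the genes that rose, 812 (42.7%) changed by under 0.5, 824 (43.3%) by 0.5 to 1, 229 (12.0%) by 1 to 2 and 36 (1.89%) by 2 or more. Among the genes that fell, the same classes held 731 (36.4%), 837 (41.7%), 373 (18.6%) and 67 genes (3.34%). A change of at least 1 was thus found in 265 genes that rose and in 440 that fell, together 705 genes or 11.5% of those tested. The excess of falling genes in this size class depended on the scaling, with 161 higher and 675 lower for equal totals and 316 higher and 331 lower after quantile normalization. With a pseudocount of 5, which damps the changes of low genes, 202 rose and 259 fell by at least 1.

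The direction of the change followed the level of the gene. Genes of low level were more often lower at pH 4.0 and genes of high level more often higher under the deposited scaling, while after quantile normalization the medians of the 2 lowest bands turned to 0.03 and 0.01. Of the 758 genes with a mean under 10 CPM over the 6 libraries, 11.9% rose and 40.6% fell, and their median log2 fold change was -0.28. Of the 1285 genes at 10 to 30 CPM, 14.7% rose and 49.6% fell, with a median of -0.30. The 2112 genes at 30 to 100 CPM were nearest to balance, with 28.2% that rose, 34.1% that fell and a median of -0.04. At 100 to 300 CPM, 46.4% of 1277 genes rose and 19.3% fell, with a median of 0.16. At 300 to 1000 CPM, 62.4% of 513 genes rose and 13.6% fell, with a median of 0.35. Of the 171 genes at 1000 CPM and over, 66.7% rose and 15.2% fell, and the median was 0.45.

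**Figure D1:**
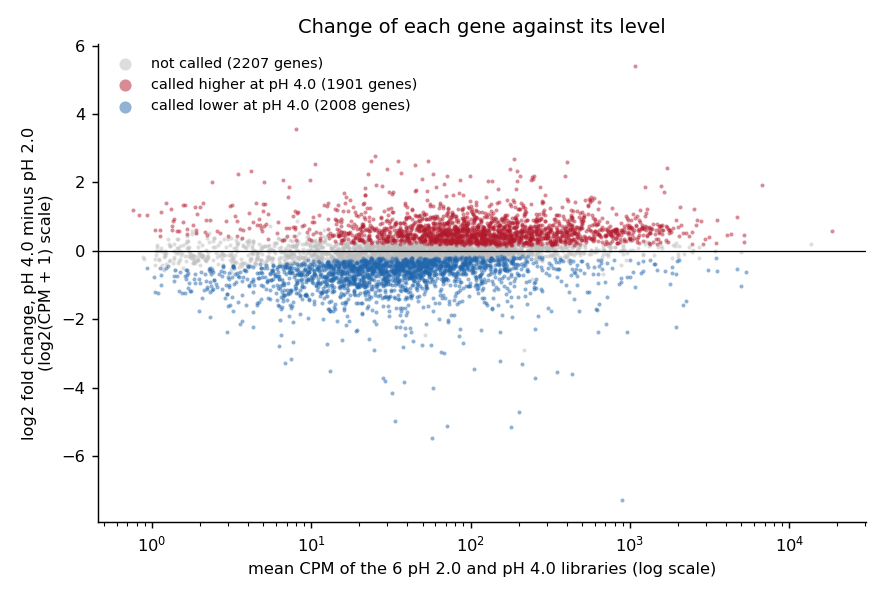
Log2 fold change of each of the 6116 genes (y axis, pH 4.0 minus pH 2.0 on the log2(CPM + 1) scale) against its mean CPM over the 6 libraries (x axis, log scale), with 1 point per gene coloured by its call. Points called lower are most numerous at 10 to 100 CPM, with 637 at 10 to 30 CPM and 721 at 30 to 100 CPM. Points called higher are most numerous at 30 to 300 CPM, with 595 at 30 to 100 CPM and 593 at 100 to 300 CPM. The largest single changes are falls.

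The highest band stood 0.73 above the lowest in median log2 fold change. Set against the pH 2.0 mean, this gap was 0.85, 0.70 and 0.64 in pH 4.0 replicates A, B and C, a SD of 0.11 (n = 3). All 3 values share the same pH 2.0 mean, so this SD leaves out the spread among the pH 2.0 libraries. The gap of 0.73 became 0.69 with equal totals, which turned the median of the band at 100 to 300 CPM to -0.05. Without pH 2.0 replicate A it was 0.67. Quantile normalization gives every library the same distribution of values and left a gap of 0.11, and under it the share of genes called higher ran from 25.3% in the lowest band to 45.0% in the highest, with 22.7% and 22.8% called lower. No test was applied to the gap, since genes are not independent replicates.

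**Figure D2:**
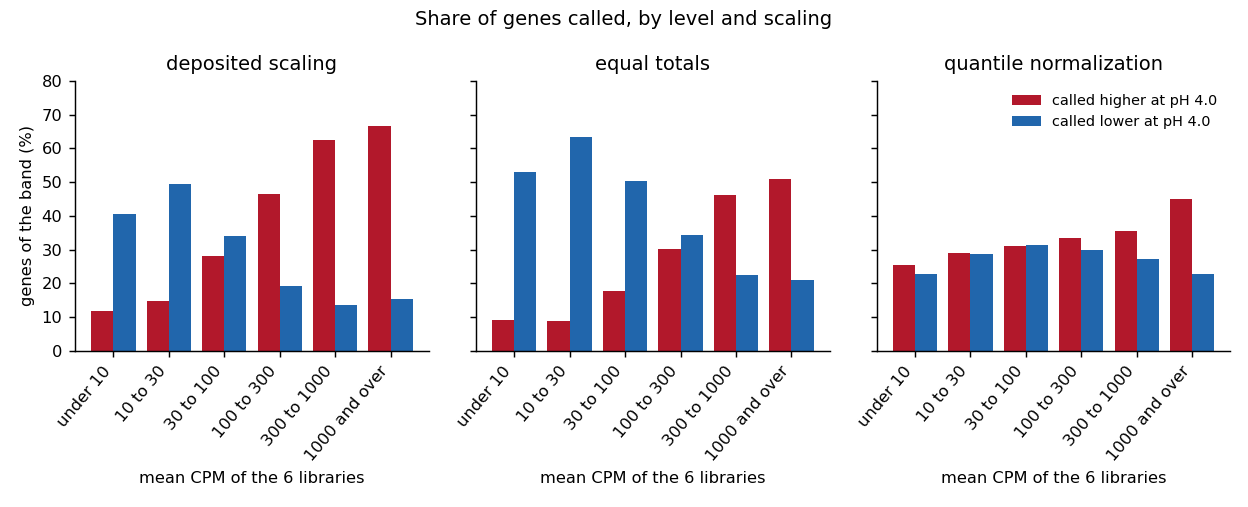
Percentage of genes called higher (red) and lower (blue) at pH 4.0 (y axis) in 6 bands of mean CPM (x axis), under the deposited scaling, equal totals and quantile normalization. In the left panel the red bars grow from band to band. The blue bars there peak at 49.6% at 10 to 30 CPM, with 13.6% at 300 to 1000 CPM and 15.2% at 1000 CPM and over. In the middle panel the red bars stand at 8.97% under 10 CPM and 8.72% at 10 to 30 CPM and grow above. The blue bars there peak at 63.5% at 10 to 30 CPM and shrink above. In the right panel the 2 bars of a band differ most in the highest band.

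The bands were also compared by their shares of the recovered reads. A share sets every library to the same total, as the scaling to equal totals does, so these values are not separate evidence. Genes at 1000 CPM and over took 32.7%, 33.8% and 34.0% of the reads of pH 2.0 replicates A, B and C, and 36.7%, 36.4% and 35.0% of those of pH 4.0. Every pH 4.0 library lay above every pH 2.0 library. Genes under 10 CPM took 0.524%, 0.437% and 0.460% of the reads at pH 2.0 and 0.294%, 0.320% and 0.323% at pH 4.0, again with no overlap. The band at 300 to 1000 CPM took 27.0%, 27.3% and 27.0% at pH 2.0 and 28.4%, 27.9% and 28.2% at pH 4.0, and the band at 30 to 100 CPM took 14.0%, 13.4% and 13.5% and then 11.2%, 11.7% and 12.0%. The bands were set by the mean deposited CPM of these same 6 libraries. The 10 genes with most reads in a library took 7.47% to 7.81% of them at pH 2.0 and 7.77% to 8.26% at pH 4.0.

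The 67 genes that fell by at least 2 on the log2 scale had a median level of 67.2 CPM at pH 2.0 and 8.76 CPM at pH 4.0. Their median log2 fold change was -2.48, the value by which they were chosen. These genes varied among the acid cultures. Their median SD of log2 values was 0.58 at pH 2.0, 0.21 at pH 4.0 and 0.18 at pH 6.0, against 0.11, 0.13 and 0.09 over all genes. Replicate A of pH 2.0 held the highest of the 3 values in 59 of the 67, replicate B held the lowest in 47, and the order A over C over B was found in 43. Over all 6116 genes replicate A was the highest in 2233, replicate B the lowest in 2037, and this order was found in 1309. The median log2(CPM + 1) of the 67 genes was 6.71, 5.65 and 5.84 in the 3 pH 2.0 libraries and 3.46, 3.41 and 2.90 in the 3 pH 4.0 libraries. Without pH 2.0 replicate A the median log2 fold change was -2.25, and all 67 were still called lower.

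**Figure D3:**
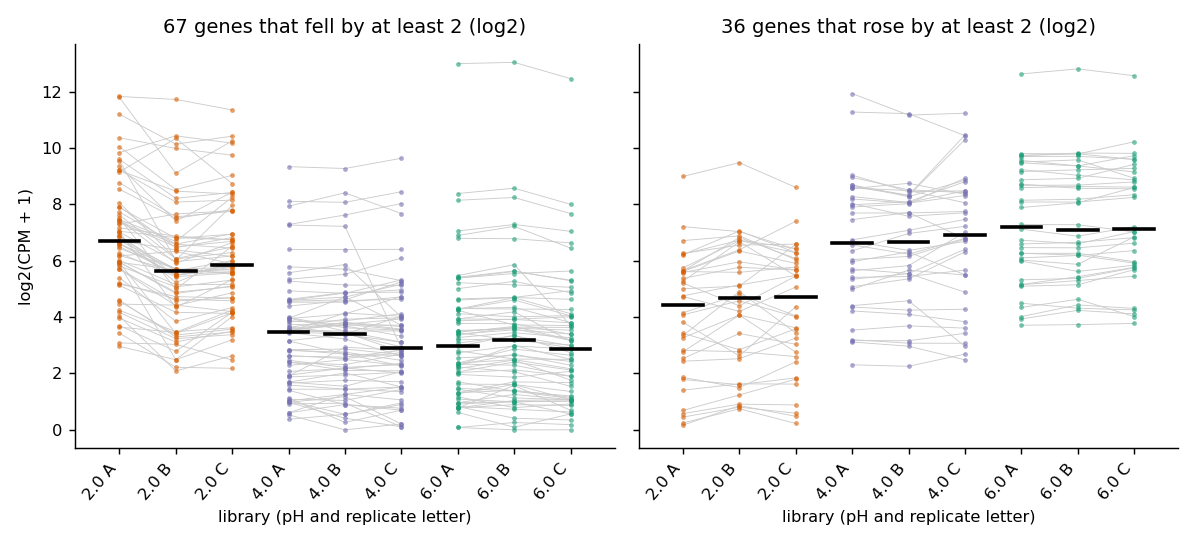
Log2(CPM + 1) (y axis) in each of the 9 libraries (x axis, pH and replicate letter) of the 67 genes that fell and the 36 that rose by at least 2 on the log2 scale at pH 4.0, with 1 point per gene, a grey line joining a gene's values within a pH and a black bar at the median. The median of the falling genes stands at 6.71 in pH 2.0 replicate A, above the 5.65 and 5.84 of the other pH 2.0 libraries.

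The 36 genes that rose by at least 2 had a median level of 22.5 CPM at pH 2.0, 106 CPM at pH 4.0 and 140 CPM at pH 6.0. Their median log2 fold change was 2.25, and 2.16 without pH 2.0 replicate A, under which all 36 were still called higher. Their median SD of log2 values was 0.42 at pH 2.0, 0.33 at pH 4.0 and 0.16 at pH 6.0, each above that of all genes. Replicate A of pH 2.0 held the lowest value in 21 of the 36 and the highest in 2, against 2438 and 2233 of all 6116 genes. The values of this replicate also entered the choice of both the falling and the rising genes. A near switch was rare. In 1 gene all pH 2.0 libraries lay under 1 CPM while the pH 4.0 mean was at least 10 CPM, and in 4 genes this was found the other way round.

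The pair of genes with the largest rises and the pair with the largest falls, among those with groups that did not overlap and a mean of at least 10 CPM in the higher group, are given by identifier. YALI0B00374g was measured at 31.1, 33.3 and 94.8 CPM at pH 2.0 and at 2477, 2380 and 1384 CPM at pH 4.0. All pH 4.0 values lay far above the pH 2.0 values, and replicate C was the highest at pH 2.0 and the lowest at pH 4.0. Its mean rose 39.2-fold, from 53.1 ± 36.1 to 2080 ± 605 CPM (SD, n = 3), with a log2 fold change of 5.41 (SE 0.36, limma adjusted p = 3.79e-06). Without pH 2.0 replicate C the means differed 64.6-fold. At pH 6.0 it stood at 6328, 7160 and 6053 CPM.

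YALI0B18986g was the gene that came on from under 1 CPM. Its level was 0.123, 0.814 and 0.394 CPM at pH 2.0, 17.6, 16.1 and 13.3 CPM at pH 4.0, and 75.7, 75.8 and 61.5 CPM at pH 6.0. The 3 groups did not overlap. The lowest of these values lay under the level of 3 reads in its library, 0.184 CPM. Its mean rose 35.3-fold, or 60.7-fold without pH 2.0 replicate B, and the log2 fold change on the log2(CPM + 1) scale was 3.55 (SE 0.18, limma adjusted p = 1.10e-06), a value that the pseudocount sets in part, with 4.64 at a pseudocount of 0.25 and 1.92 at 5.

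YALI0A13497g had the largest change of any called gene with these criteria. It was measured at 3545, 551 and 1217 CPM at pH 2.0 and at 9.90, 8.34 and 5.14 CPM at pH 4.0. Replicate A was again the highest and replicate B the lowest at pH 2.0, and the pH 4.0 values were all lower by far. The mean was 227-fold lower at pH 4.0, with a log2 fold change of -7.29 (SE 0.52, limma adjusted p = 4.56e-06). Leaving out pH 2.0 replicate A gave -6.58, and leaving out replicate B gave -7.92. The fold of the means was 113 without replicate A.

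YALI0C06259g was measured at 196, 65.9 and 77.2 CPM at pH 2.0 and at 1.12, 1.06 and 1.71 CPM at pH 4.0. The groups lay far apart, and replicate A was the highest at pH 2.0 here too. The mean was 87.2-fold lower at pH 4.0, with a log2 fold change of -5.47 (SE 0.33, limma adjusted p = 2.47e-06). Without pH 2.0 replicate A the means differed 55.2-fold. With a pseudocount of 5 the log2 fold change was -4.07. At pH 6.0 the gene remained near 1 CPM, with values of 1.13, 0.992 and 1.03.

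**Figure D4:**
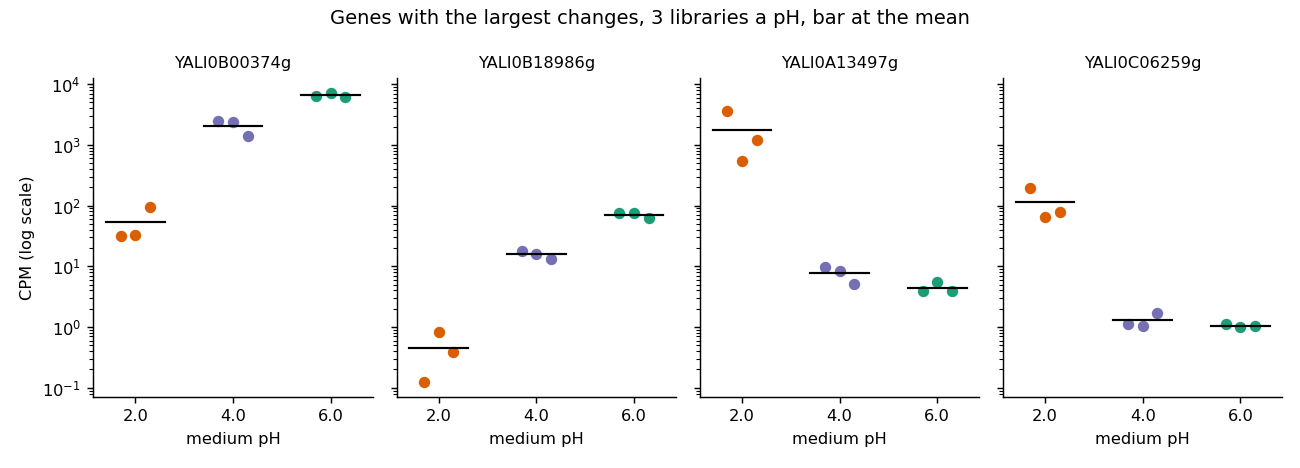
CPM (y axis, log scale) of the 4 genes with the largest rises and falls in the 3 libraries of each medium pH (x axis), with points for replicates A, B and C from left to right and a bar at the mean. YALI0B00374g and YALI0B18986g stand lowest at pH 2.0, and YALI0A13497g and YALI0C06259g stand high at pH 2.0.

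The lower step was then set against the upper step, from pH 4.0 to pH 6.0. Under the deposited scaling, changes on the lower step were somewhat larger in general among the genes kept. The sizes and counts of the upper step were not made under the other scalings. The median size of the log2 fold change was 0.39 on the lower step and 0.30 on the upper, where 1552 genes were called higher at pH 6.0 (25.4%) and 1587 lower (25.9%). A change of at least 1 was called in 185 genes that rose and 134 that fell on the upper step, against 265 and 440 on the lower. The filter used the libraries of the lower step alone, so genes that reached 1 CPM only at pH 6.0 were left out of the upper counts. The same filter over 9 libraries kept 6165 genes, against 6116 here. How many of the genes left out changed on the upper step was not tested, so the counts of the steps are not on equal terms. The pH 4.0 libraries enter both steps, so the steps were compared by a single contrast in the same fit, the upper change minus the lower. By it 3086 genes differed between the steps (50.5%), of which 1584 had the more positive change on the upper step and 1502 on the lower. With equal totals this split was 2047 to 999, and after quantile normalization it was 1339 to 1502.

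The 4 named genes were chosen for their change on the lower step, so their values on the upper step are given as a description, with no test. YALI0B00374g had a log2 fold change of 1.69 (SE 0.36) on the upper step and 5.41 (SE 0.36) on the lower. For YALI0B18986g the values were 2.11 (SE 0.18) on the upper step and 3.55 (SE 0.18) on the lower, and the order of these is not read, since the lower value depends on the pseudocount. For YALI0A13497g the upper value was -0.67 (SE 0.52) beside -7.29 (SE 0.52), and for YALI0C06259g it was -0.15 (SE 0.33) beside -5.47 (SE 0.33).

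By size class, the genes that rose by 2 or more on the lower step had a median further change of 0.68 on the upper step, and those that rose by 1 to 2 had one of 0.22. The genes that fell by 2 or more had a median further change of -0.17, and those that fell by 1 to 2 one of -0.05. These medians share the pH 4.0 libraries with the values that chose the classes and are given as a description.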

How the data were processed

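Total RNA of 9 bioreactor cultures was sequenced from stranded libraries, per the labels' protocols. The submitters' processing notes name, with no order, edgeR, HTSeq, TopHat2 2.0.10, Trimmomatic 0.30 and bcl2fastq 1.8.4. The sources used here give neither a genome build nor the strand setting of the counting, so overlapping and antisense genes are uncertain. The deposited signal is CPM scaled by edgeR's effective library size, per the file headers. All values (100%, tolerance 0.01 reads) were whole multiples of 1 read, worth 0.0563 to 0.0779 CPM, so reads could be recovered, from 12974822 to 17701766 per library. A count of 3 reads corresponds to 0.169 to 0.234 CPM, which covers counting error only.

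Values were fitted as log2(CPM + 1) in R 4.3.3 by limma 3.58.1 with its trend of variance on mean, over all 9 libraries with a mean per pH and 6 residual degrees of freedom, two-sided. On the recovered reads, edgeR 4.0.16's quasi-likelihood test called 3908 genes and DESeq2 1.42.0 called 3903. Replicates differed by more than sampling noise, with a chi-square per degree of freedom from 8.75 to 55. Whether bioreactors shared an inoculum is not stated, and the p-values set each difference against the spread between these samples. Alternatives covered the pseudocount, the filter, the scaling, the block, the trend, the threshold and the libraries in the fit. The bands by pH 6.0 level, the folds of the named genes' means without each library and the values of the level bands and large changes without pH 2.0 replicate A were added after seeing the data. The comparison, rules and lists were chosen with earlier results of these data known. Lists of genes by pathway, which had been planned, are not reported, since the table and the reference annotate none of their identifiers (0 matched of the table's 6170). The 2 genes with the highest and the 2 with the lowest log2 fold change, among called genes with groups that do not overlap and a higher mean of at least 10 CPM, are named.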

Additional observations from a re-analysis of the deposited data

How the results depend on the processing

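The number of genes called, 3909, ran from 3143 (adjusted p under 0.01) to 4134 (equal totals) over the settings tried, and from 3579 to 3842 when each of the 9 libraries was left out. The number with a change of at least 1, 705, moved to 461 with a pseudocount of 5 and ran from 592 to 803 when a library was left out, the lowest without pH 2.0 replicate A. The number that differed between the steps, 3086, moved to 1950 at an adjusted p under 0.01 and ran from 2265, without pH 4.0 replicate A, to 3041. The split into higher and lower calls moved by over 10 percentage points with equal totals, to 1266 and 2868. On the lower step the 4 named genes kept their direction and their call in every alternative run, and no alternative was run for their upper step. The main fit did not pair the samples by replicate letter. The same-letter correlation of deviations between pH 2.0 and pH 4.0 was -0.08, -0.06 and -0.14 for replicates A, B and C. Between pH 4.0 and pH 6.0 it was 0.29, 0.09 and 0.11, and between pH 2.0 and pH 6.0 it was 0.12, -0.21 and 0.02. These values cannot show whether cultures of the same letter shared an inoculum or a day. The fit with the letter as a replicate block called 3845 genes, 705 with a change of at least 1 and 3012 that differed between the steps. The block changed no lower-step call of a named gene. The alternatives planned for lists of genes by pathway were not run, since those lists are not reported. The gap between the highest and lowest level bands, 0.73, moved to 1.03 with bands by the pH 6.0 mean. After quantile normalization, whose construction makes the distributions equal, the gap was 0.11. The cause of the move to 1.03 and of the other moves was not tested. Depth limits the values of genes near 3 reads.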
